A study of Mus musculus with 40 samples.

Results

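The sites described are CTCF-bound regions that also carried SMC3 in small pre-B cells of Brwd1 knockout mice. They were taken from the peak list of the first WT CTCF library as those peaks that overlapped, by at least 1 bp, a peak in both CTCF lists and in both SMC3 lists of the knockout (KO). This rule kept 8515 of the 21429 CTCF peaks of that list (39.7%). CTCF itself was called in both KO lists at 18268 peaks (85.2%), called kept sites here, so that 9753 kept sites lacked SMC3 in at least 1 KO list and are the other kept sites below. The sites were thus chosen by measured CTCF and SMC3 peaks in KO, so the CTCF and SMC3 values below are descriptions, and tests are given only for other proteins, for histone marks and for oligomycin-treated cells.

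The series is chromatin immunoprecipitation followed by sequencing (ChIP-seq) in small pre-B cells sorted by flow cytometry from mouse bone marrow. KO cells came from Brwd1-/- mice, ATPneg cells were WT cells held for 2 h in 126 nM oligomycin A, an inhibitor of the mitochondrial ATP synthase, and WT cells were untreated. SMC3, RAD21, NIPBL and WAPL were profiled in KO, ATPneg and WT cells, and CTCF, H3K27ac and H3K4me1 in KO and WT cells, with 2 libraries per group. The 36 ChIP libraries are accompanied by 4 input samples, 2 each for KO and WT. ATPneg cells were cultured and the others were not, and no group was cultured without oligomycin, so that ATP depletion and culture cannot be told apart. The labels give neither the deleted stretch of Brwd1 nor the sex or age of the animals. The H3K27ac and H3K4me1 KO libraries carry KO titles and descriptions while their genotype field reads WT. They are called KO here by their titles.

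CTCF is a zinc finger protein that binds DNA in a fixed orientation and marks many boundaries and loop anchors. Cohesin is a ring built from SMC1, SMC3 and RAD21 that extrudes DNA loops and accumulates where CTCF halts it. NIPBL activates the ring's ATPase and is needed for loading and extrusion, and WAPL opens the ring and releases it. In small pre-B cells, loop extrusion brings distant V segments of the immunoglobulin light chain loci to their J segments, and BRWD1 is a bromodomain protein known to be needed at this stage of development.

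Reads counted in peak regions ranged from 3784506 to 30496715 per library. The KO libraries of SMC3, RAD21 and NIPBL held 3784506 to 7415143 reads against 15416715 to 24962590 in WT, so that for these proteins genotype and sequencing depth cannot be told apart. For CTCF, the first WT library held 3880112 reads and the second held 17055094, and their lists hold 21429 and 67796 peaks. ATPneg libraries have peak lists but no counts here, and their depth is unknown. H3K27ac regions lay within 1 kb of the start of 6 of 8 B lineage marker genes, against 3 of 9 T cell, 2 of 8 myeloid and 2 of 8 erythroid and megakaryocyte markers. Vpreb1 and Igll1, which encode the surrogate light chain of the pre-B receptor, were the B lineage markers without such a region. The summed H3K27ac level of the B lineage list was 5.22 and 5.72 CPM (reads scaled to library size) in KO and 7.86 and 7.38 CPM in WT. That of the erythroid list was 4.64 and 5.72 CPM in KO and 5.46 and 4.63 CPM in WT, most of it at Hbb-b1. The T cell list summed to 2.80 and 2.84 CPM in KO and 1.83 and 2.42 CPM in WT, and the myeloid list to 2.38 and 2.13 CPM in KO and 1.79 and 2.02 CPM in WT. The B lineage sum was thus lower in both KO libraries and the T cell and myeloid sums higher, although Blnk, the largest B lineage value, was higher in KO, at 3.05 and 3.02 CPM, against 2.40 and 2.17 CPM in WT. The part of other cell types in the results was not tested.

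Among gene starts covered by an SMC3-holding site, those of Bcl2l1, Pgk1, Hook2, Fuca1, Irak2 and Tesk1 carried the most SMC3 in KO of those whose RefSeq promoter holds the letters AGGNGGC, the core of the CTCF motif, on either strand. The 5 of these genes with a single start in the RefSeq table (GRCm38.p6) are printed 5′ to 3′ on the gene's strand, from 250 bases before to 50 bases after the start, to show what such a start looks like. Capitals mark the AGGNGGC match on either strand. The intervals are chrX:106186850-106187149 (+) for Pgk1, chr8:84990373-84990672 (+) for Hook2, chr4:135920476-135920775 (+) for Fuca1, chr6:113638217-113638516 (+) for Irak2 and chr4:43442027-43442326 (+) for Tesk1.
Pgk1: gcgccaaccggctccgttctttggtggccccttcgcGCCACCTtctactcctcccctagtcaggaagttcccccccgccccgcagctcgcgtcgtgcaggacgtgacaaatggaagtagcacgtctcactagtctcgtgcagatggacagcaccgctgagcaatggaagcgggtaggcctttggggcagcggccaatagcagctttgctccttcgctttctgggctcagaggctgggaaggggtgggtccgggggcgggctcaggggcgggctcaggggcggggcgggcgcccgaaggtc
Hook2: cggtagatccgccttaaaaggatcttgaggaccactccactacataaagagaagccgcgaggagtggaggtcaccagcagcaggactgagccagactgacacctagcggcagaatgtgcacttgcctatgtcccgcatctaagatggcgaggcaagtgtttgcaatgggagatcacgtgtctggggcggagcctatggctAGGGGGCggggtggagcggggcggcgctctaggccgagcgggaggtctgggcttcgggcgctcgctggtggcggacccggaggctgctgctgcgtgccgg
Fuca1: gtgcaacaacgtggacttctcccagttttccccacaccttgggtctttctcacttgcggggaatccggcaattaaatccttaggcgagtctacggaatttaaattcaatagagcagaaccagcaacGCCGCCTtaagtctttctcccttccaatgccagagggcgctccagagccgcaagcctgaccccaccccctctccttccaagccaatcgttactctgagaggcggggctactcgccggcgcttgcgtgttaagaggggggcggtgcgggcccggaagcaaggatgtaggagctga
Irak2: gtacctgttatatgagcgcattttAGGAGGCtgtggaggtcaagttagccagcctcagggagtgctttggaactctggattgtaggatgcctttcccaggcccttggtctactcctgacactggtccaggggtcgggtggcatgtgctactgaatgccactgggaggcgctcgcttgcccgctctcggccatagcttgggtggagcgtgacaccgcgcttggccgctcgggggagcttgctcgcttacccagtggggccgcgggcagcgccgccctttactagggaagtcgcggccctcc
Tesk1: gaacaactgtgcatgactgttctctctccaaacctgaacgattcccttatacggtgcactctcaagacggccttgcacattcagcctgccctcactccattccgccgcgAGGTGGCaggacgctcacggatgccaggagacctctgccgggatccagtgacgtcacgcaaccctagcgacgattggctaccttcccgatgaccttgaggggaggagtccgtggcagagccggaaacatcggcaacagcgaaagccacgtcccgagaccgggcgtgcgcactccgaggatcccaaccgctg
Of the genes with an SMC3-holding site between 250 bases before and 50 bases after their start, 349 were found in the RefSeq table, and 53.6% of their first listed promoters hold the letters. The share was 56.3% over 618 genes with another kept site there and 28.9% over the first listed promoters of all 27025 genes of the table. The peak files are in the older build mm9, and a match is a description and not a bound position.

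SMC3 at these 5 starts differed widely between genotypes and little between replicates. At Pgk1, which encodes the glycolytic enzyme phosphoglycerate kinase, SMC3 stood at 49.8 and 51.8 CPM in KO against 4.70 and 3.19 CPM in WT. At Hook2, a microtubule linker protein, it stood at 51.3 and 46.8 CPM in KO against 4.70 and 3.25 CPM in WT. At Fuca1, a lysosomal fucosidase, it stood at 46.0 and 41.6 CPM in KO against 3.59 and 2.63 CPM in WT. KO and WT libraries did not overlap at any of these starts. At Irak2, a kinase of interleukin-1 and Toll-like receptor signalling, SMC3 stood at 41.2 and 39.1 CPM in KO against 2.48 and 1.94 CPM in WT. At Tesk1, a kinase that phosphorylates cofilin, it stood at 31.5 and 33.3 CPM in KO against 4.24 and 2.69 CPM in WT.

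SMC3 was high in both KO libraries and low in both WT libraries over nearly all sites. In the 8519 regions of the SMC3 count table that overlapped an SMC3-holding site, the median level was 13.4 and 13.3 CPM in the KO libraries and 1.24 and 0.875 CPM in the WT libraries. The median ratio of KO to WT means was 13.0. KO libraries lay above both WT libraries in 8457 of these regions (99.3%), where 30.1% of all SMC3 regions did so, and below both in 27, where 39.2% of all SMC3 regions did so. These regions held 18.6% of all SMC3 reads in regions in each KO library, against 6.56% and 5.31% in the WT libraries. An SMC3 peak was called in the WT lists at 2.10% and 3.03% of the sites, and 8181 sites (96.1%) had none in either WT list. These values follow from a rule that asked for SMC3 peaks in KO and carry no test.

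**Figure D1:**
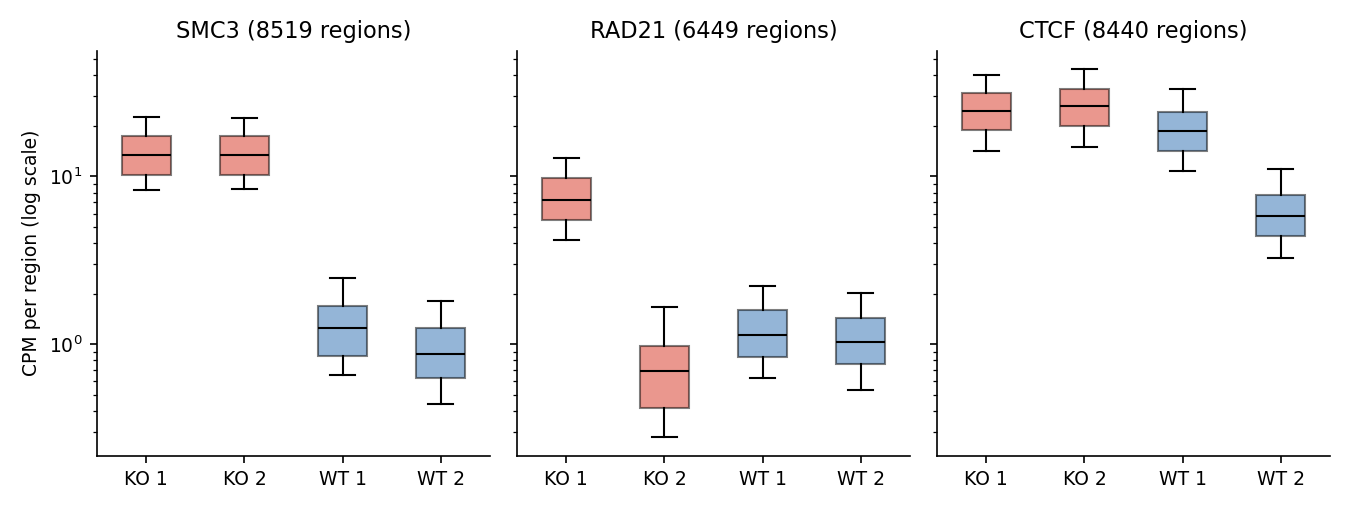
Reads per region in CPM (log scale) at the SMC3-holding sites for SMC3, RAD21 and CTCF in the 2 KO and 2 WT libraries; boxes span the quartiles around the median and whiskers the 10th to 90th percentiles over regions. Both SMC3 KO libraries lie near 13 CPM, while RAD21 is high in KO 1 alone, at a median of 7.25 CPM.

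CTCF was present in all 4 libraries at nearly all sites. Its median level was 24.6 and 26.1 CPM in KO and 18.5 and 5.81 CPM in WT, over 8440 regions. The WT libraries thus differed from each other by a median ratio of 3.22, more than the median ratio of 2.04 between KO and WT means. KO libraries lay above both WT libraries in 88.0% of regions, against 31.1% of all CTCF regions, and below both in 7, against 39.8% of all CTCF regions. The second WT list held a CTCF peak at 96.6% of SMC3-holding sites and at 77.4% of other kept sites.

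The 5 members with the lowest SMC3 KO peak score had 5.01 to 10.9 CPM in KO. The 5 highest-scoring kept sites with a peak in 1 SMC3 KO list had 9.06 to 29.8 CPM in KO. These sets were picked from opposite ends of the score, so they describe the edge of the rule and do not compare the classes. The low-scoring members, all at a score of 5.01 in KO 1, included sites whose nearest genes were Cyb5r3, Tmem39a and Mx2. These sites lay at -37913, 60220 and -12672 bp from the gene starts. The Cyb5r3 site, named by a cytochrome b5 reductase gene, had 5.01 and 7.69 SMC3 CPM in KO against 0.522 and 0.50 CPM in WT. Outside the rule, the site near Galk1, the galactokinase gene, had no SMC3 peak in KO 1 and a score of 24.1 in KO 2. Its SMC3 level was 9.06 and 12.2 CPM in KO against 0.718 and 0.563 CPM in WT. Kept sites with a peak in 1 SMC3 KO list numbered 3856, and their median SMC3 level was 7.63 and 7.69 CPM in KO against 0.783 and 0.563 CPM in WT. The median over the SMC3-holding sites was higher, at 13.4 and 13.3 CPM in KO.

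The SMC3-holding sites also carried SMC3 in WT cells deprived of ATP. SMC3 peaks of the 2 ATPneg lists overlapped 98.8% and 98.6% of the sites, against 2.10% and 3.03% for the 2 WT lists. The mean share was 98.7% ± 0.191 in ATPneg and 2.57% ± 0.656 in WT (SD, n = 2 each). An exact two-sided permutation test gave p = 0.33, which is the smallest p that 2 against 2 libraries allow. Both ATPneg lists held a peak at 8348 sites (98.0%) and neither did at 54 sites (0.634%). Within the ATPneg lists, the peaks at these sites had a median score of 41.9 and 38.8, against 12.2 and 12.1 over all peaks of each list. The ATPneg lists held 40667 and 39437 peaks, against 41044 and 64033 in the WT lists. Other kept sites held SMC3 in the ATPneg lists at 87.3% and 85.3%, so that most of the CTCF sites without SMC3 in both KO lists also had it in ATPneg cells.

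RAD21, the subunit that closes the ring, followed in ATPneg cells to an extent that differed between libraries. Its peaks overlapped 54.8% and 98.9% of the SMC3-holding sites in ATPneg, 75.2% and 2.95% in KO and 3.38% and 2.81% in WT. Both ATPneg libraries lay above both WT libraries, and the exact permutation test again gave its smallest value, p = 0.33. In KO, the first library was close to the ATPneg values and the second lay within the range of WT. RAD21 was called in KO 1 and not in KO 2 at 6174 sites (72.5%), in both at 231 sites (2.71%) and in KO 2 and not in KO 1 at 20 sites. All 4 ATPneg lists of SMC3 and RAD21 held a peak at 4627 sites (54.3%). Other kept sites had RAD21 peaks less often in every one of these lists, with 18.1% and 86.8% in ATPneg, 19.4% and 0.718% in KO, and 0.554% and 0.605% in WT.

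**Figure D2:**
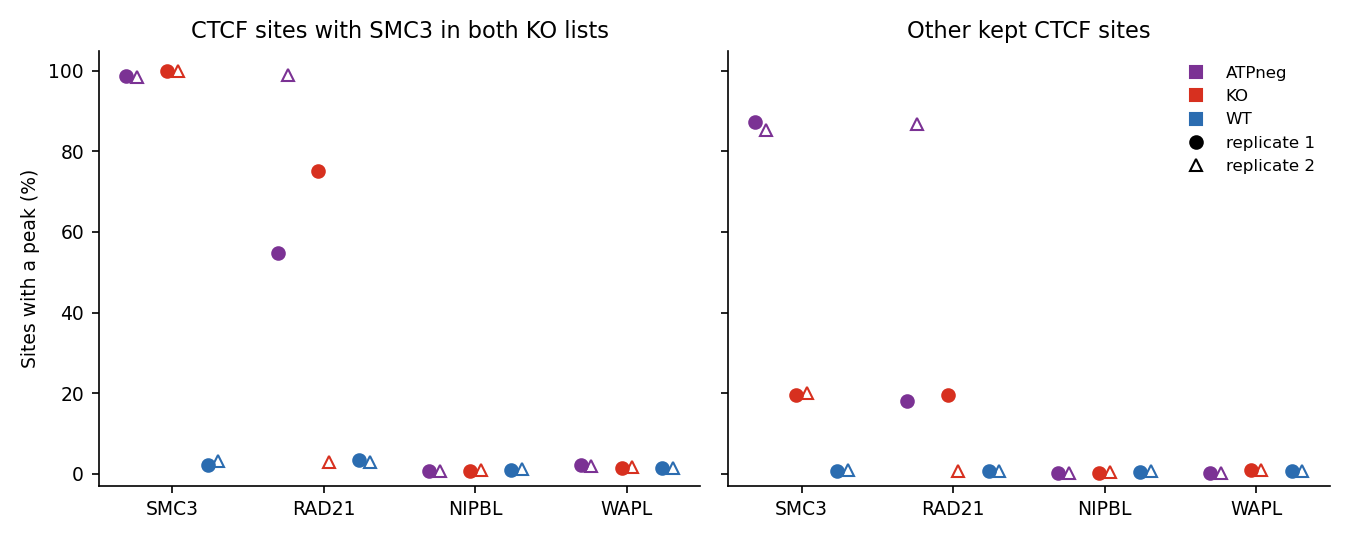
Share of sites (%) with a peak of SMC3, RAD21, NIPBL or WAPL in each library, for the 8515 SMC3-holding sites (left panel) and the 9753 other kept CTCF sites (right panel); filled circles are replicate 1 and open triangles replicate 2. SMC3 in KO chose the sites in the left panel; RAD21 is near 75% in KO 1 and near 3% in KO 2, and NIPBL and WAPL stay under 3% in all libraries.

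Read counts showed the same split of the RAD21 KO libraries. The RAD21 table had 6449 regions that overlapped 6445 of the SMC3-holding sites (75.7%), and 5891 of them (91.3%) were in the table through a peak of KO 1 and of no other library. Their median level was 7.25 and 0.695 CPM in the KO libraries and 1.13 and 1.03 CPM in the WT libraries. KO 1 was the highest of the 4 libraries in 98.6% of these regions, where it was in 28.5% of all RAD21 regions. With edgeR's quasi-likelihood test and Benjamini-Hochberg adjustment over all 84996 regions tested, 41 of the 5977 regions tested at these sites were higher in KO (0.686%) and 13 were lower (0.218%). The share called over the whole table was 2.30% higher and 21.1% lower, or 23.4% in either direction. KO libraries lay above both WT libraries in 723 regions at the sites (11.2%), against 28.9% of all RAD21 regions, and below both in 57, against 48.1%. The median log2 fold change was 1.87 at the sites and -0.39 over all regions. Since most regions entered through a KO 1 peak, neither this value nor the higher calls carry a test for the sites.

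The size of the change depended on which KO library was used. Without KO 2, the median log2 fold change at the sites was 2.73, against -0.35 over all regions. Without KO 1 it was -0.18, against -0.26. Without WT 1 it was 1.87, against 0.01, and without WT 2 it was 2.25, against 0.59. Since 91.3% of the regions at the sites entered through a peak of KO 1 alone, the value without KO 2 carries no test for the sites. Among the 41 regions called higher, the one near Adamts4, a secreted protease of the extracellular matrix, had 8.19 and 14.9 CPM in KO against 0.835 and 0.625 CPM in WT (log2 fold change 3.96 ± 0.44 (SE), edgeR adjusted p = 0.0433). Near Rmi2, a subunit of the complex that dissolves Holliday junctions, RAD21 stood at 8.32 and 10.6 CPM in KO against 1.42 and 1.07 CPM in WT (log2 fold change 2.91 ± 0.32, edgeR adjusted p = 0.0433). Near Hdhd2, it stood at 8.32 and 6.4 CPM in KO against 1.38 and 0.536 CPM in WT (2.93 ± 0.55, edgeR adjusted p = 0.0433). At these places both KO libraries were high, and the starts lay 6796 bp (Adamts4), 44450 bp (Rmi2) and 33853 bp (Hdhd2) away. Each region lost the call with scaling to low-count regions, without a low-count filter, with a replicate block and without dense-input regions. As most regions entered through a KO 1 peak, these calls are descriptions. Of the 13 regions called lower, 12 lay at sites in dense input. That near Cyr61, a matricellular protein gene, held 420 input reads per kb and had 14.5 and 18.5 CPM in KO against 55.6 and 106 CPM in WT. The regions near Ndst4 and Hif1an, also lower, held 359 and 129 input reads per kb, against a median of 42.0 over the RAD21 regions of the sites. The lower regions named lay at -41041 bp (Cyr61), -175557 bp (Ndst4) and 44228 bp (Hif1an) from the gene starts.

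NIPBL was rarely detected at these sites in any condition. Its peaks overlapped 0.669% and 0.611% of the sites in ATPneg, 0.693% and 0.787% in KO, and 0.869% and 1.08% in WT. The lists recorded for KO 2 and WT 1 carry each other's library name inside, so these 2 values may be exchanged, while read counts go by their own column names. The difference between ATPneg and WT was -0.335 percentage points (exact permutation p = 0.33), and only 135 sites (1.59%) had a NIPBL peak in any of the 6 lists. In the count table, 127 regions overlapped 126 of the sites, 21 of them through KO lists alone and 59 through WT lists alone. Of the 127, 37 were higher in KO (29.1%) and none was lower by edgeR's adjusted p under 0.05, against 0.995% higher and 0.630% lower over the table, or 1.63% in either direction. KO libraries lay above both WT libraries in 78 of the 127, against 26.3% of all NIPBL regions, and below both in 6, against 28.9%. DESeq2 called 30 higher and none lower, against 563 higher and 151 lower over all 61724 regions. It gave no adjusted p for 42 of the 127. An unadjusted edgeR p under 0.05 was found for 69 of the 127, and its share over all regions was not counted. These regions had a median of 329 input reads per kb, against 202 over all NIPBL regions, and 111 of them held more than 100. Counted without the 304 sites (3.57%) whose CTCF region held over 100 input reads per kb, 5 of 41 regions were higher. The matching share over all regions or other kept sites was not counted. The median log2 fold change at the sites was 0.51 with all libraries. Without KO 1, KO 2, WT 1 or WT 2 it was 0.64, 0.38, 0.75 or 0.45, against -0.01 to 0.01 over all NIPBL regions.

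The region with the largest NIPBL change lay 138223 bp from the start of Chl1, a neural cell adhesion gene, and held 112434 input reads per kb. NIPBL stood there at 3694 and 3565 CPM in KO against 956 and 875 CPM in WT (log2 fold change 1.99 ± 0.07, edgeR adjusted p = 2.42e-07). Near Ykt6, a SNARE protein gene 50492 bp away, the input was 33.3 reads per kb. NIPBL stood there at 28.6 and 18.1 CPM in KO against 9.14 and 5.02 CPM in WT (1.72 ± 0.29, edgeR adjusted p = 0.0244). Near Npm2, a histone chaperone gene of the oocyte, it stood at 13.7 and 31.5 CPM in KO against 8.14 and 5.19 CPM in WT (1.76 ± 0.33, edgeR adjusted p = 0.0354). KO and WT libraries did not overlap at any of these regions, and the Npm2 region held 116 input reads per kb.

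WAPL was found at few of the sites as well. Its peaks overlapped 2.16% and 1.79% of them in ATPneg, 1.46% and 1.66% in KO, and 1.41% and 1.29% in WT. The excess of ATPneg over WT was 0.622 percentage points (exact permutation p = 0.33) and changed sign, to -0.0822, with a stricter peak score. The ATPneg lists were far shorter, with 3280 and 4623 peaks, against 76389 and 81317 in the WT lists. Other kept sites went the other way, with 0.267% and 0.164% in ATPneg and 0.646% and 0.625% in WT. The count table had 200 regions at 207 sites. Of the 199 tested, 59 were higher in KO (29.6%) and 23 lower (11.6%) by edgeR's adjusted p under 0.05, against 13.1% higher and 27.6% lower over all 126089 regions tested, or 40.7% in either direction. KO libraries lay above both WT libraries in 115 of 200 regions, against 36.2% of all WAPL regions, and below both in 40, against 36.5%. With scaling to low-count regions the split was 117 higher and 17 lower, against 50486 higher and 24440 lower over all 126089 regions tested. At sites outside dense input, 32 of 109 regions were higher and 3 lower, so that 20 of the 23 lower regions lay at sites in dense input. This split was not made over all regions or other kept sites. The median log2 fold change at the sites was 0.45 with all libraries, against 0.07 over all regions. Without KO 1 it was 0.39, against 0.04, and without KO 2 it was 0.45, against 0.04.

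Near Nefh, a neurofilament gene, WAPL stood at 4.12 and 6.00 CPM in KO against 0.532 and 0.940 CPM in WT (log2 fold change 2.77 ± 0.37, edgeR adjusted p = 0.00580). Near Pdia6, a protein disulfide isomerase gene at a distance of -27019 bp, it stood at 5.45 and 7.57 CPM in KO against 1.74 and 1.09 CPM in WT (2.20 ± 0.32, edgeR adjusted p = 0.00717). Near Aldh1a2, the gene of a retinoic acid synthesising enzyme, it was lower, at 14.0 and 12.9 CPM in KO against 24.4 and 28.4 CPM in WT (-0.97 ± 0.13, edgeR adjusted p = 0.00549). The region near Chl1, where NIPBL rose, had less WAPL in KO, at 609 and 617 CPM, against 1004 and 1060 CPM in WT. With regions of dense input removed before scaling, the Aldh1a2 and Gemin2 regions turned to log2 fold changes of 0.26 and 0.35.

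H3K4me1, the mark of enhancers and of the flanks of active gene starts, was called lower or higher in 497 of 794 regions tested at these sites. Inside the peak lists recorded for H3K4me1 WT and H3K27ac KO the names are exchanged, which does not touch the read counts given for both marks, as they go by their own column names. H3K4me1 was measured at 795 regions that overlapped 767 of the SMC3-holding sites (9.01%). Of the 794 regions tested, 307 were lower in KO (38.7%) and 190 were higher (23.9%) by edgeR's adjusted p under 0.05, whereas 9.98% of all 179582 regions tested were lower and 6.44% higher, or 16.4% in either direction. KO libraries lay below both WT libraries in 383 of 795 regions, against 26.8% of all H3K4me1 regions, and above both in 282, against 26.3%. At gene starts 198 of 300 regions were lower (66.0%) and 50 higher (16.7%), against 43.0% and 12.2% of all promoter regions in the table. Away from gene starts 109 of 494 regions were lower (22.1%) and 140 higher (28.3%), against 7.33% and 5.98% of such regions in the table. Outside dense input the counts were 271 lower and 156 higher of 663, and this split was not made over all regions or other kept sites.

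At the start of Sh3glb1, which encodes the membrane-bending protein endophilin B1, H3K4me1 stood at 1.40 and 1.51 CPM in KO against 23.5 and 26.5 CPM in WT (log2 fold change -4.11 ± 0.14, edgeR adjusted p = 6.47e-156). At the start of Cd164, a sialomucin gene, it stood at 1.28 and 1.98 CPM in KO against 21.3 and 22.5 CPM in WT (-3.74 ± 0.14, edgeR adjusted p = 2.58e-132). At Cr1l, a gene of a complement regulator, it stood at 0.790 and 0.639 CPM in KO against 9.08 and 7.27 CPM in WT (-3.49 ± 0.21, edgeR adjusted p = 7.77e-53). All 3 are gene starts at which WT libraries were uniformly high. Gains were smaller in size. The region nearest Rpl11, a ribosomal protein gene, had 4.68 and 5.46 CPM in KO against 0.706 and 0.961 CPM in WT (2.58 ± 0.22, edgeR adjusted p = 7.07e-28). Regions near Elovl3, a fatty acid elongase gene, and Ndufa4l2 rose by log2 fold changes of 2.45 and 2.29.

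H3K4me1 at SMC3-holding sites stood higher relative to other kept CTCF sites in KO than in WT. The median level per kb at their regions exceeded that at the 911 regions of other kept sites by 0.63 and 0.65 (log2) in KO against 0.01 and 0.04 in WT. The difference of these differences was 0.61, larger than the pooled SD between libraries of 0.0182, with an exact permutation p of 0.33, the smallest that the design allows. The classes differ in their share of gene starts, with 300 of 794 tested regions at SMC3-holding sites and 542 of 911 at other kept sites. At gene starts the median log2 fold change was -1.02 at SMC3-holding sites and -1.37 at other kept sites, and away from them it was 0.11 and -0.03, so that the classes stood closer within each place than over all regions. Other kept sites had 58.4% of their tested regions lower in KO and 14.1% higher. For the other readouts this difference was 0.03 for RAD21, 0.27 for NIPBL, -0.14 for WAPL and -0.16 for H3K27ac, each with an exact permutation p of 0.33. That of WAPL changed sign, to 0.26, when an overlap of 50% was asked for, and that of H3K27ac to 0.08 with a stricter peak score. That of NIPBL became 0.02 without KO 2. The RAD21 value covers only sites with a RAD21 region, 6449 regions at SMC3-holding sites and 1946 at other kept sites. Since 91.3% of the 6449 entered through a peak of KO 1 alone, it carries no test for the sites.

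**Figure D3:**
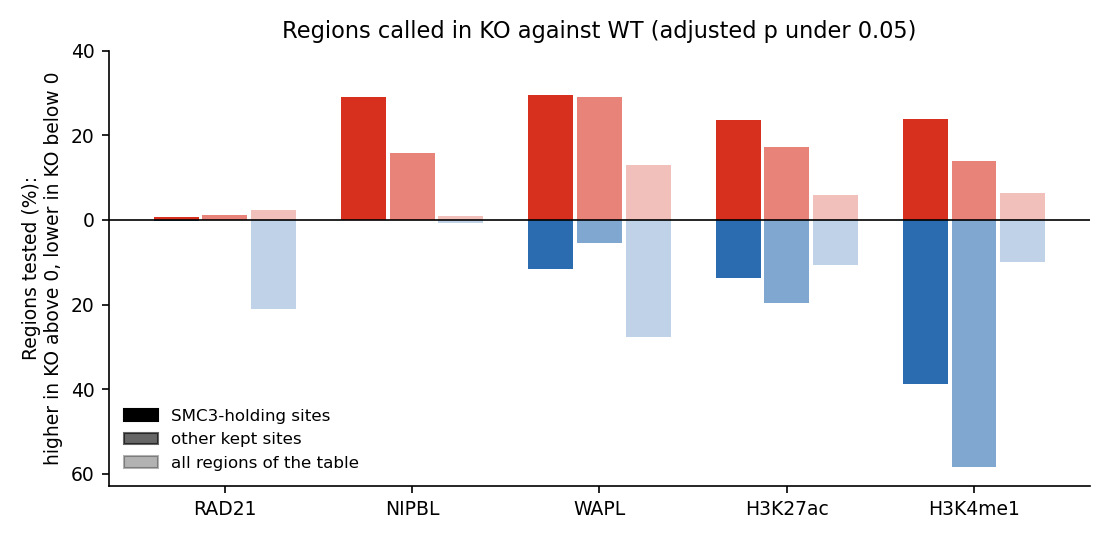
Share of regions tested (%) called in KO against WT by edgeR at an adjusted p under 0.05, higher in KO above the line and lower in KO below it; dark bars are regions at SMC3-holding sites, lighter bars those at other kept sites and the palest bars all regions of each table. H3K4me1 has 38.7% lower at SMC3-holding sites, 58.4% at other kept sites and 9.98% over its table.

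H3K27ac, the mark of active enhancers and promoters, was measured at 443 regions that overlapped 441 sites (5.18%). Of the 439 tested, 104 were higher in KO (23.7%) and 60 lower (13.7%) by edgeR's adjusted p under 0.05, against 5.90% higher and 10.6% lower over 235173 regions, or 16.5% in either direction. KO libraries lay above both WT libraries in 185 of 443 regions, against 27.1% of all H3K27ac regions, and below both in 110, against 26.3%. With scaling to low-count regions the split was 93 higher and 92 lower, against 7418 higher and 50099 lower over the table. With library totals it was 125 higher and 41 lower, against 22208 higher and 15990 lower. Higher calls were most frequent at sites in dense input, where 68 of 130 regions were higher (52.3%) and 18 lower (13.8%). At the remaining sites 36 of 309 were higher (11.7%) and 42 lower (13.6%), against the 5.90% and 10.6% of the whole table. At gene starts 26 of 73 regions were lower (35.6%), against 16.9% of all H3K27ac promoter regions tested, and 17 were higher (23.3%), against 8.42%.

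Sh3glb1 lost both marks: H3K27ac at its start stood at 0.793 and 0.754 CPM in KO against 3.47 and 3.85 CPM in WT (log2 fold change -2.24 ± 0.23, edgeR adjusted p = 9.99e-17). At Arl5c it stood at 0.668 and 0.710 CPM in KO against 2.94 and 3.12 CPM in WT (-2.13 ± 0.24, edgeR adjusted p = 9.83e-14). At Azi2, an adaptor of TBK1 kinase signalling, it stood at 0.668 and 0.754 CPM in KO against 2.25 and 2.46 CPM in WT (-1.72 ± 0.26, edgeR adjusted p = 8.99e-09). KO and WT did not overlap at these starts. The largest gains were near Zfp821, with 4.64 and 4.13 CPM in KO against 0.344 and 0.404 CPM in WT (3.53 ± 0.25, edgeR adjusted p = 2.14e-28), and near Zfp106 and Izumo1, with log2 fold changes of 3.46 and 3.32.

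Whether a kept CTCF site held SMC3 in KO went with the strength of its CTCF peak. The share that did so was 17.0% in the lowest quartile of the CTCF WT 1 peak score, then 34.4%, 56.7% and 79.1% in the highest. The sites had a median score of 23.4 and a median length of 316 bp, against 11.3 and 239 bp at other kept sites. Sites with high scores more easily pass any peak threshold, and the rule itself asked for peaks in 4 KO lists. Within the highest quartile, RAD21 peaks were called at 73.9% and 99.9% of the SMC3-holding sites in ATPneg and at 89.0% in KO 1. Other kept sites of that quartile had RAD21 at 42.8% and 96.2% in ATPneg and at 38.5% in KO 1. In the lowest quartile, RAD21 was called at 21.8% and 96.1% of the SMC3-holding sites in ATPneg and at 46.8% in KO 1, against 9.09%, 79.3% and 10.4% of other kept sites. The classes thus differed in these lists within the lowest and the highest quartile of CTCF score.

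Sites holding SMC3 lay farther from genes and more often on autosomes. They fell at a gene start in 11.6% (95% exact binomial interval 10.95 to 12.3%), against 17.1% (16.4 to 17.9%) of other kept sites, where intervals cover counting error only. In the highest CTCF quartile 61.1% of sites at gene starts held SMC3, against 83.2% of sites away from them. Their median distance to the nearest gene start was 17125 bp, against 14555 bp, and 34.1% lay within 10 kb of one, against 39.2%. Inside gene bodies lay 45.4%, against 47.8%. The sites had 6112 different nearest genes, 182 had no gene start within 200 kb, and the median spacing between neighbours was 82478 bp.

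On the X chromosome 75 of 369 kept sites held SMC3 (20.3%), against 8425 of 17857 on the autosomes (47.2%). Single autosomes ranged from 43.7% on chromosome 3 to 49.8% on chromosome 19. The X share was lower in each CTCF quartile, at 9.20%, 23.7%, 34.4% and 40.7% of 163, 118, 61 and 27 sites, against 17.3%, 34.8%, 57.0% and 79.3% on autosomes. SMC3 peaks in ATPneg covered 89.2% and 88.9% of the kept X sites, against 92.8% and 91.6% of the autosomal ones. The median CTCF level at kept X sites was 12.3 and 13.1 CPM in KO and 9.92 and 2.94 CPM in WT, against 19.9 and 21.0 CPM in KO and 14.6 and 4.60 CPM in WT on autosomes. The part of the lower CTCF level in the lower X share was not tested beyond these quartiles.

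**Figure D4:**
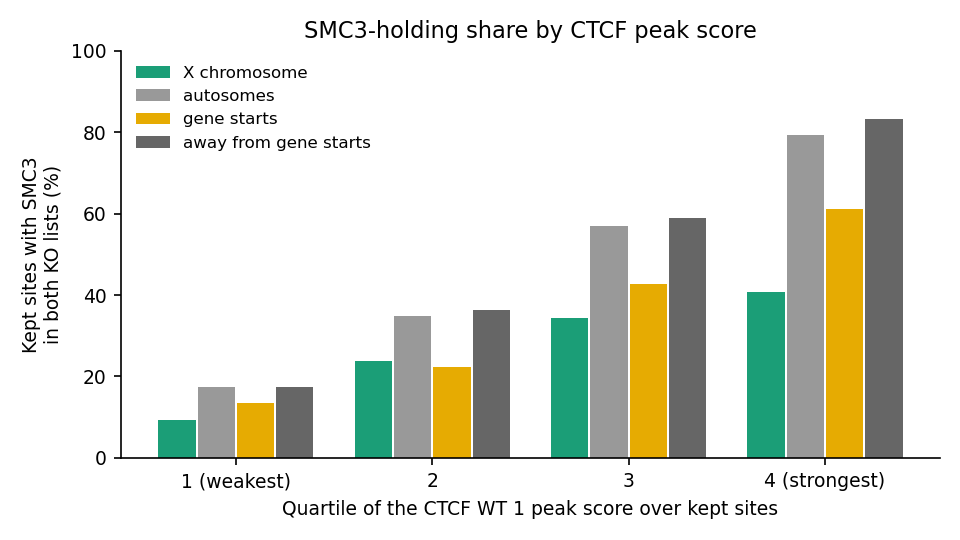
Share of kept CTCF sites (%) that held SMC3 in both KO lists, by quartile of the CTCF WT 1 peak score, for the X chromosome, the autosomes, gene starts and sites away from gene starts. The share climbs with the score in all 4 sets, to 40.7% on the X chromosome and 79.3% on the autosomes.

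In the immunoglobulin loci, the window chr6:67000000-71000000 (mm9), which holds the Igk light chain genes, had 25 SMC3-holding sites among 57 kept sites. A window of chromosome 12 over the V region of the Igh heavy chain genes had 5 among 34. The share over all kept sites on chromosome 6 was 45.3% and on chromosome 12 it was 47.5%.

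SMC3-holding sites lay within 10 kb of the start of 9 of 33 annotated B lineage transcription factors, 8 of 28 genes of the pre-B receptor and Ig recombination, 9 of 25 proliferation genes, 6 of 19 glycolysis genes and 4 of 18 genes of cohesin, CTCF and the BRWD family. Over all 23676 annotated genes the share was 14.6%, and differences between lists were not tested. Other kept sites lay within 10 kb of 8, 7, 5, 5 and 7 genes of these lists, in the same order, and of 4442 of all annotated genes. The 4 cohesin genes were Smc3 itself, Stag1, Nipbl and Pds5b. Among the proliferation genes were Myc, Mycn, Ccnd2, Ccnd3 and Cdk6.

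Of the sites near genes of the first and second of these lists, the 16 nearest to a start are described, the nearest being that at Cxcr4, the receptor that retains B cell progenitors in bone marrow (chr1:130488967-130489398, mm9). SMC3 stood there at 85.6 and 76.0 CPM in KO against 12.3 and 10 CPM in WT, and RAD21 at 19.5 and 1.95 CPM in KO against 4.38 and 3.44 CPM in WT. H3K4me1 fell at Cxcr4, to 5.41 and 7.61 CPM in KO, against 13.6 and 13.1 CPM in WT (log2 fold change -1.03 ± 0.11, edgeR adjusted p = 1.11e-18). It also fell at Nhej1, an end joining factor, at Vpreb3, which binds nascent immunoglobulin chains, and at the transcription factor gene Sox4, by log2 fold changes of -1.68, -0.82 and -1.17.

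Sites near 3 transcription factor genes of early B cells had SMC3 of similar size. Near Ebf1 (chr11:44424420-44424747), which specifies the B lineage, it stood at 23.8 and 17.9 CPM in KO against 2.55 and 1.31 CPM in WT. Near Foxo1 (chr3:52066325-52066649), which activates the recombinase genes, it stood at 30.3 and 24.7 CPM in KO against 3.20 and 2.69 CPM in WT. Near Id3 (chr4:135705554-135705995), an inhibitor of E proteins, it stood at 26.7 and 22.6 CPM in KO against 1.89 and 1.5 CPM in WT. The KO libraries lay above the WT libraries at each. Id3 was also a place where both RAD21 KO libraries were high, at 11.7 and 8.90 CPM in KO against 1.67 and 1.47 CPM in WT (log2 fold change 2.70 ± 0.29, edgeR adjusted p = 0.0433). Of the KO and WT lists, only that of KO 1 held a RAD21 peak at this site, so the call is a description. RAD21 near Ebf1 and Foxo1 stood at 18.4 and 2.22 CPM and at 19.3 and 1.95 CPM in KO, against 2.17 and 1.79 CPM and 3.21 and 2.28 CPM in WT, so that KO 1 was high there while KO 2 lay close to or below WT.

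Near Vpreb3 SMC3 stood at 35.3 and 31.7 CPM in KO against 2.55 and 2.13 CPM in WT. Near Igll1 it stood at 14.8 and 12.9 CPM in KO against 1.76 and 0.625 CPM in WT. Near Cd79a, the signalling chain of the B cell receptor, it stood at 18.8 and 15.2 CPM in KO against 1.83 and 1.13 CPM in WT. The sites near Myb, Bcl6, Id2, Sox4, Nfkb2, Nhej1, Xrcc5 and Pik3cd had the same order, with KO libraries between 10.5 and 21.7 CPM and WT libraries between 0.25 and 3.46 CPM.

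The site near Prkdc, the gene of the DNA-dependent protein kinase, was the exception. SMC3 stood there at 40.5 and 52.9 CPM in KO against 317 and 44.8 CPM in WT, and the genotypes overlapped. Its CTCF region held 250 input reads per kb. NIPBL, WAPL and H3K27ac were higher in KO at this site, by log2 fold changes of 1.44, 1.11 and 2.95 (edgeR adjusted p = 0.0344, 0.00587 and 8.46e-33).

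**Figure D5:**
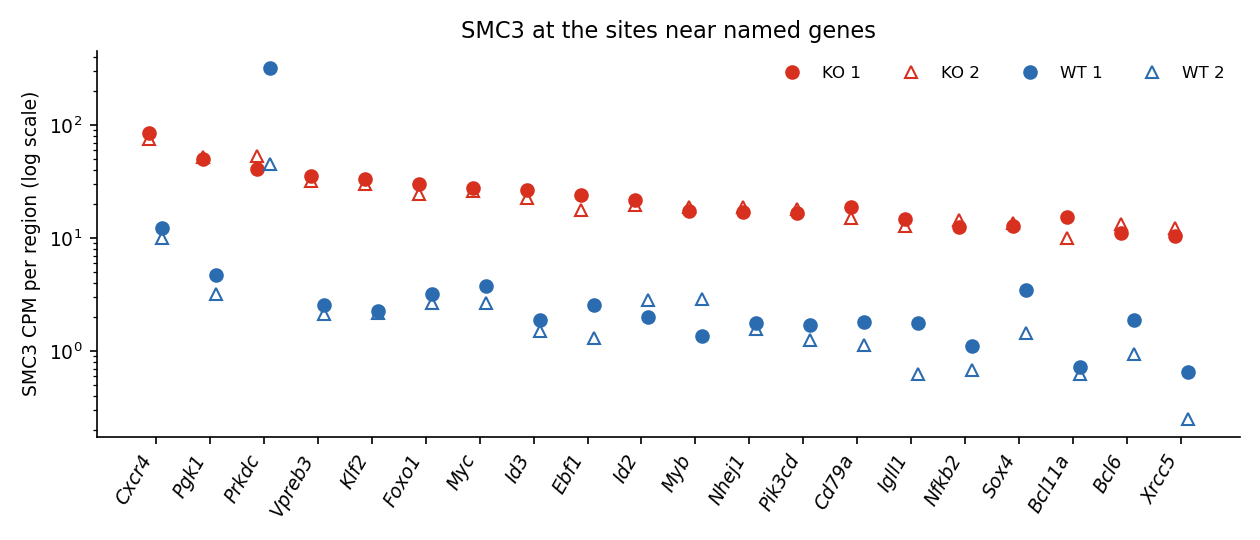
SMC3 level in CPM (log scale) in the 2 KO and 2 WT libraries at the sites near 16 B lineage genes and near Pgk1, Klf2, Bcl11a and Myc, ordered by the KO mean. All KO points lie above the WT points except at Prkdc, where WT 1 reaches 317 CPM.

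Sites were also followed at Pgk1, Klf2, Bcl11a and Myc. The Pgk1 start (chrX:103382069-103382646, mm9) had regions of all 7 readouts. NIPBL stood at 35.7 and 24.6 CPM in KO against 13.8 and 8.21 CPM in WT (log2 fold change 1.45 ± 0.25, edgeR adjusted p = 0.0270). WAPL stood there at 15.3 and 14.1 CPM in KO against 6.00 and 5.54 CPM in WT (1.35 ± 0.14, edgeR adjusted p = 0.00326). H3K27ac stood at 12.5 and 13.4 CPM in KO against 2.18 and 1.36 CPM in WT (2.87 ± 0.14, edgeR adjusted p = 5.87e-48), while H3K4me1 differed by -0.08 ± 0.11 (edgeR adjusted p = 0.705). The input was not dense there, with 28.0 reads per kb, and read 3.38 CPM in KO and 2.77 CPM in WT as the authors' pooled input columns.

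Klf2, a quiescence factor of lymphocytes, had its nearest SMC3-holding site 46712 bp from its start, with SMC3 at 33.4 and 29.9 CPM in KO against 2.28 and 2.19 CPM in WT. H3K4me1 rose there, to 3.22 and 4.30 CPM in KO, against 1.36 and 1.85 CPM in WT (log2 fold change 1.21 ± 0.21, edgeR adjusted p = 1.45e-07). Near Myc, the proliferation factor, SMC3 stood at 27.7 and 26 CPM in KO against 3.79 and 2.69 CPM in WT. Near Bcl11a, a zinc finger repressor of early lymphoid cells, it stood at 15.3 and 9.95 CPM in KO against 0.718 and 0.625 CPM in WT, and no RAD21 region overlapped that site.

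The 5 sites with the highest mean CTCF level were unlike the rest. They held 42406 to 184134 input reads per kb, against a median of 31.7 over the CTCF regions of the sites, and lay on chromosomes 2, 6, 9 and 12. At the one near Chl1, CTCF stood at 3211 and 3045 CPM in KO against 3133 and 1208 CPM in WT, while the pooled input columns read 4725 CPM in KO and 3986 CPM in WT. The rule admits such places because it uses peak lists alone, and their values are given apart from the rest for that reason.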

How the data were processed

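ChIP-seq reads had been aligned and counted by the submitters. BWA, Picard, MACS2, bedtools, featureCounts and edgeR, with the mouse build mm9, are named in the submitters' processing notes. The deposited peak lists give a score per peak, whose scale is not given in the sources used here. The deposited count tables give whole-number read counts per region of a merged KO and WT peak set for each target. Region start and end positions (other values) and gene distances came from the deposited merged and background-subtracted signal tables, and the subtracted signal values themselves were not used. 2 columns of an external input were not used.

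Overlaps were computed with bedtools 2.31.1 (1 bp). Counts were tested in whole tables with edgeR 4.0.16 (quasi-likelihood, TMM scaling, low-count filter, KO against WT, 2 against 2 libraries, Benjamini-Hochberg threshold 0.05), and with DESeq2 1.42.0 as an alternative, after a check on simulated data. CPM values use TMM-scaled library sizes. Standard errors of log2 fold changes were derived from the test statistic. Pooling of replicates in peak calling is not stated, and lists are given per library. Differences between classes of sites used log2 CPM per kb (0.5 reads added), with exact permutation tests over libraries. The replicates are biological ones, per the labels. Peak names inside 6 lists (H3K27ac KO, H3K4me1 WT, NIPBL KO 2 and NIPBL WT 1) belong to other samples, and lists were assigned by sample record. The Brwd1 deletion itself was not checked here, since no file measures its transcript. Named regions were the 3 largest changes in each direction per target among abundant, non-overlapping called regions, sites within 10 kb of B lineage genes, sites with the most CTCF, sites nearest 4 set genes and sites at the edge of the rule. For the largest changes, near names the gene with the closest start, which may lie up to 200 kb away. The sites, lists and rules were chosen with earlier results of these data known.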

Additional observations from a re-analysis of the deposited data

How the results depend on the processing

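The following alternatives were compared with the values above. RAD21 calls at the sites numbered 54 of 5977, where 23.4% of all regions were called. With DESeq2 they numbered 647 of 6449, where 18.7% of all regions were called. They numbered 0 with scaling to low-count regions, 0 without a low-count filter and 0 without dense-input regions. At these settings no region of the whole RAD21 table was called either. At those 3 settings with no call, 4834, 2478 and 2551 regions had an unadjusted edgeR p under 0.05. Leaving out 1 library gave 0 to 6337 calls, and 54 regions had an unadjusted p under 0.05 without WT 1 and 54 without WT 2. DESeq2 gave no adjusted p for 5608 of the 6449 RAD21 regions at the sites. NIPBL calls numbered 37, against 62 with scaling to low-count regions, 8 of 16 regions without dense-input regions, 5 without sites in dense input and 3 to 38 with 1 library left out. WAPL calls numbered 82, against 134 with scaling to low-count regions, 54 without dense-input regions, 35 without sites in dense input and 16 to 103 with 1 library left out. Among these, lower calls outnumbered higher ones without KO 1 (26 calls) and without KO 2 (16 calls). H3K27ac calls numbered 164 of 439, where 16.5% of all regions were called. With DESeq2 they numbered 78 of 443, where 5.12% of all regions were called. With an overlap of 50% of the site they numbered 82 of 112. Without sites in dense input they numbered 78 of 309, and lower calls outnumbered higher ones. H3K4me1 calls numbered 497 of 794, against 194 of 252 with an overlap of 50% of the site, where 16.4% of all regions were called. The alternative without sites in dense input was chosen after seeing the data.

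A replicate block gave 0 RAD21 calls at the sites and none over the whole RAD21 table, with 329 unadjusted edgeR p under 0.05 at the sites. It gave 69 calls for NIPBL, 70 for WAPL, 169 for H3K27ac and 498 for H3K4me1 at the sites. Over all regions it called 11.4% for NIPBL, 35.3% for WAPL, 17.0% for H3K27ac and 16.7% for H3K4me1. The replicate numbers do not state a pairing of KO and WT libraries. The correlation of same-numbered deviations was 0.000210 to 0.0299, which cannot show how the libraries were prepared.

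For peak presence in ATPneg minus WT, in percentage points, SMC3 at 96.1 became 96.9 with an overlap of 50%, 94.8 with a stricter score and 95.4 with the union of replicates. Single replicates gave 95.5 to 96.7 for SMC3, 51.5 to 96.1 for RAD21 and -0.470 to -0.200 for NIPBL. NIPBL became -0.188 with an overlap of 50%. WAPL became 0.112 with an overlap of 50%, 1.17 with the union and -0.0822 with a stricter score. For sites against other kept sites (log2), RAD21 became 0.0499 with a stricter score. WAPL became 0.26 with an overlap of 50% and 0.28 with a stricter score. H3K27ac became -0.0497 and 0.0798 and H3K4me1 0.539 and 0.445 at the same settings. The cause was not tested for any of these. Scaling to low-count regions moved the median log2 fold change over all regions to 0.42 for RAD21, 0.16 for NIPBL, 0.55 for WAPL and -0.17 for H3K27ac, against -0.39, 0.00, 0.07 and 0.02. Of the single regions named, the WAPL regions near Aldh1a2 and Gemin2 turned to 0.26 and 0.35 without dense-input regions. Of the other comparisons of named regions, 194 kept their direction and call and 53 kept the direction and lost the call.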
